A study of Mus musculus with 5 samples.

Results

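The mouse genome carries its Hox genes in 4 clusters, and the WT1 peaks inside those clusters are described here. They were found by position alone, as every listed peak that shared at least 1 bp with 1 of 4 windows of the mouse assembly mm9. The windows were HoxA at chr6:52090000-52230000, HoxB at chr11:96040000-96250000, HoxC at chr15:102740000-102890000 and HoxD at chr2:74490000-74620000. Of 622792 peaks in the 4 lists, 297 met a window: 15 of 6440 in M15 replicate 1, 54 of 60925 in M15 replicate 2, 127 of 310999 in KTS-minus replicate 1 and 101 of 244428 in KTS-minus replicate 2. Together the windows span 630 kb and hold 38 named Hox genes, 10 each in HoxA and HoxB and 9 each in HoxC and HoxD.

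The peaks come from CUT&RUN, in which an antibody inside permeabilised cells steers a tethered nuclease to cut out the DNA beside its target protein. The cells were M15, a mouse mesonephric epithelial line transformed with the large T antigen of polyoma virus. WT1 antibody ab89901 was used on M15 itself (2 replicates) and on an M15 line that the labels name KTS-minus (2 replicates). The labels do not say how that line was made, which WT1 isoform it makes, whether it is a single clone, or whether replicates were separate cultures, so the spread between replicates may be technical. An IgG library of M15 was not analysed here, so the level of peaks without WT1 antibody is not known for these windows.

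Hox genes encode homeodomain transcription factors that give cells their position along the body axis. Within a cluster the genes lie in the order of their numbers: low numbers act toward the head and are switched on early, high numbers act toward the tail. In the kidney, Hoxa11, Hoxc11 and Hoxd11 act together in forming the metanephros, the permanent kidney, while the mesonephros from which M15 derives is a more anterior, transient kidney. WT1 binds DNA through zinc fingers and is needed for the kidney and gonad to form. Alternative splicing decides whether a short insert, named KTS after its amino acids lysine, threonine and serine, sits in the zinc-finger part. The form lacking the insert is the one best known for binding specific DNA sequences.

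No mm9 gene positions were at hand, so peaks were not assigned to single Hox genes. The order of the genes along each chromosome was read from the later assembly GRCm38, where all 38 were found, and is taken to be the same in mm9. HoxA runs from Hoxa2 on the low-coordinate side to Hoxa13 on the high side. The other clusters run the opposite way: HoxB from Hoxb13 to Hoxb1, HoxC from Hoxc13 to Hoxc4 and HoxD from Hoxd13 to Hoxd1.

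RefSeq promoters of GRCm38.p6, from 250 bases before to 50 bases after a gene start, were available for 22 of the 38 genes (24 promoters). They were searched on both strands for GCGNGGGNG, which covers GC-rich sites shared by WT1 and EGR proteins, and for GNGTGGGAG, a WT1-type site. A single site can match both. The first was present in 6 of the 24 (25.0%), against 12.3% of all 32851 promoters in the table, and the second in 0 of 24, against 3.61%. By cluster the first was in 4 of 10 HoxA promoters, 1 of 3 HoxB, 0 of 1 HoxC and 1 of 10 HoxD. The stretches below show the match nearest the far end of each of these promoters, in gene direction, with the matching bases in capitals. Hoxa10 has 2 starts in the table, and the match lies before 1 of them. In Hoxd13, Hoxa2 and Hoxa13 the match is on the opposite strand. These positions are GRCm38.p6 and cannot be laid over the mm9 peaks, so whether WT1 sat on any of them was not tested.
Hoxa2, chr6:52165043-52165072, minus strand: gcactctcgcCCCCCACGCactcccggggc
Hoxa9, chr6:52227452-52227481, minus strand: ggagatggggGCGGGGGGGaaagagaggaa
Hoxa10, chr6:52234959-52234988, minus strand: ccgccgcggtGCGGGGGGGattgctaatcg
Hoxa13, chr6:52261056-52261085, minus strand: cccccccaccCACCCCCGCctcctccgtgg
Hoxb8, chr11:96281673-96281702, plus strand: cagtcgggcgGCGGGGGCGatcgaagctgc
Hoxd13, chr2:74667975-74668004, plus strand: gctCTCCCGCGCccccacccccacgtgtcc

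The 4 clusters differed in how they were covered. HoxA was densely covered on the side of its low-numbered genes in all 4 libraries. HoxB held weaker peaks, gathered toward Hoxb1. HoxC held 1 site common to all 4 libraries, near the Hoxc13 side, and few other M15 peaks. HoxD had no region with a peak in each M15 library, a class that held only 1.25% of the regions of the genome and 1.33% of those in the HoxD flanks. As these are peak lists with 2 libraries a line, no test of a difference between the lines is given: an exact permutation test of 2 against 2 cannot go below p = 0.3333.

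**Figure D1:**
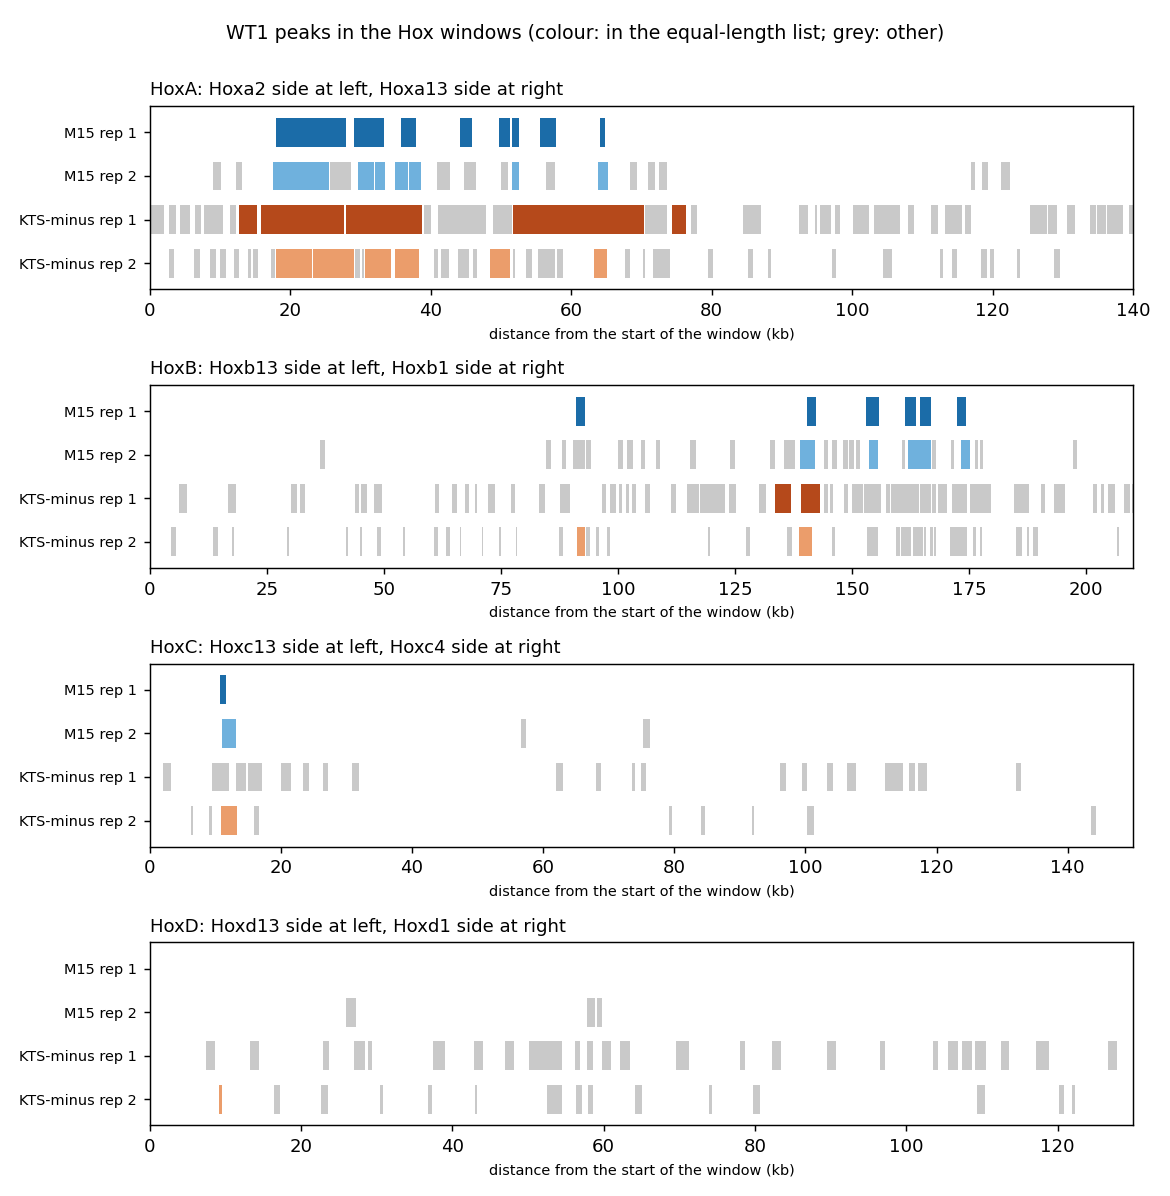
Peaks of each library (rows) along each Hox window, with the distance from the start of the window in kb on the x axis. Coloured peaks are among the 6440 strongest of their list by max signal, grey peaks are not: in HoxA the coloured peaks of all 4 libraries lie left of 80 kb.

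Each window was compared with windows of its own size, tiled from 0.5 to 1 Mb to each side. This gave 6 flanking windows for HoxA, 4 for HoxB and 6 for HoxD. HoxC lies so near the end of chromosome 15 that only the 3 windows on its low side could be used. The lists differ widely in length, and the deposited coverage units have no stated common scale. Covered shares are therefore read against the flanks of the same library. They were also computed at equal list length, by keeping of each list only its 6440 strongest peaks by max signal, as many as the shortest list holds. DNA copy number was not measured, and copy number and WT1 occupancy cannot be told apart in a covered share.

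HoxA, the cluster of Hoxa2 to Hoxa13, was covered more than the mean of its flanks in all 4 libraries. Its peaks covered 17.1% of the window in M15 replicate 1 and 24.3% in replicate 2, against 0.642% ± 1.04 and 5.02% ± 4.05 (SD over 6 flanking windows). In KTS-minus they covered 68.7% and 35% in replicates 1 and 2, against 59.2% ± 10.4 and 19.8% ± 3.19 (SD, 6 windows). In M15 replicates 1 and 2 and in KTS-minus replicate 2 the cluster lay above all 6 flanking windows, and in KTS-minus replicate 1 above 5 of 6. The ratio to the flanks was thus 26.6 and 4.83 (M15) and 1.16 and 1.77 (KTS-minus). The lists differed in density beside this: peaks covered 37.8% of chromosome 6 in KTS-minus replicate 1, against 0.544% in M15 replicate 1.

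With lists of equal length the contrast at HoxA was large in both lines. HoxA was covered to 17.1% and 12.6% in M15 replicates 1 and 2 and to 32.8% and 16.3% in KTS-minus replicates 1 and 2. Its flanks were covered to 0.642% ± 1.04 and 0.844% ± 0.981 in M15 and to 3.30% ± 3.76 and 0.483% ± 1.18 in KTS-minus (SD over 6 windows). In all 4 libraries HoxA lay above each of its 6 flanking windows, by ratios of 26.6, 14.9, 9.95 and 33.7. The 6 flanking windows together held only 3, 5, 5 and 2 peaks in these lists, so the size of the ratios is uncertain. The mean ratio was 20.8 ± 8.22 in M15 and 21.8 ± 16.8 in KTS-minus (SD, n = 2 each), so the lines overlapped. Over the whole genome cut into tiles of the HoxA size, with whole lists, 0.0902% of 18840 tiles in M15 replicate 1 were covered at least as much as HoxA. The share was 1.16%, 1.32% and 1.46% of 18855 tiles in M15 replicate 2, KTS-minus replicate 1 and KTS-minus replicate 2. On chromosome 6 itself 1, 2, 40 and 4 of 1067 tiles reached the HoxA value in these libraries. The tiles, here and below, were not cut to leave out the Hox windows. A single tile holds every HoxA peak of M15 replicates 1 and 2 and KTS-minus replicate 2, and it is among their counts. The 1 tile of M15 replicate 1 is thus HoxA itself, and no other tile of chromosome 6 reached its value.

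**Figure D2:**
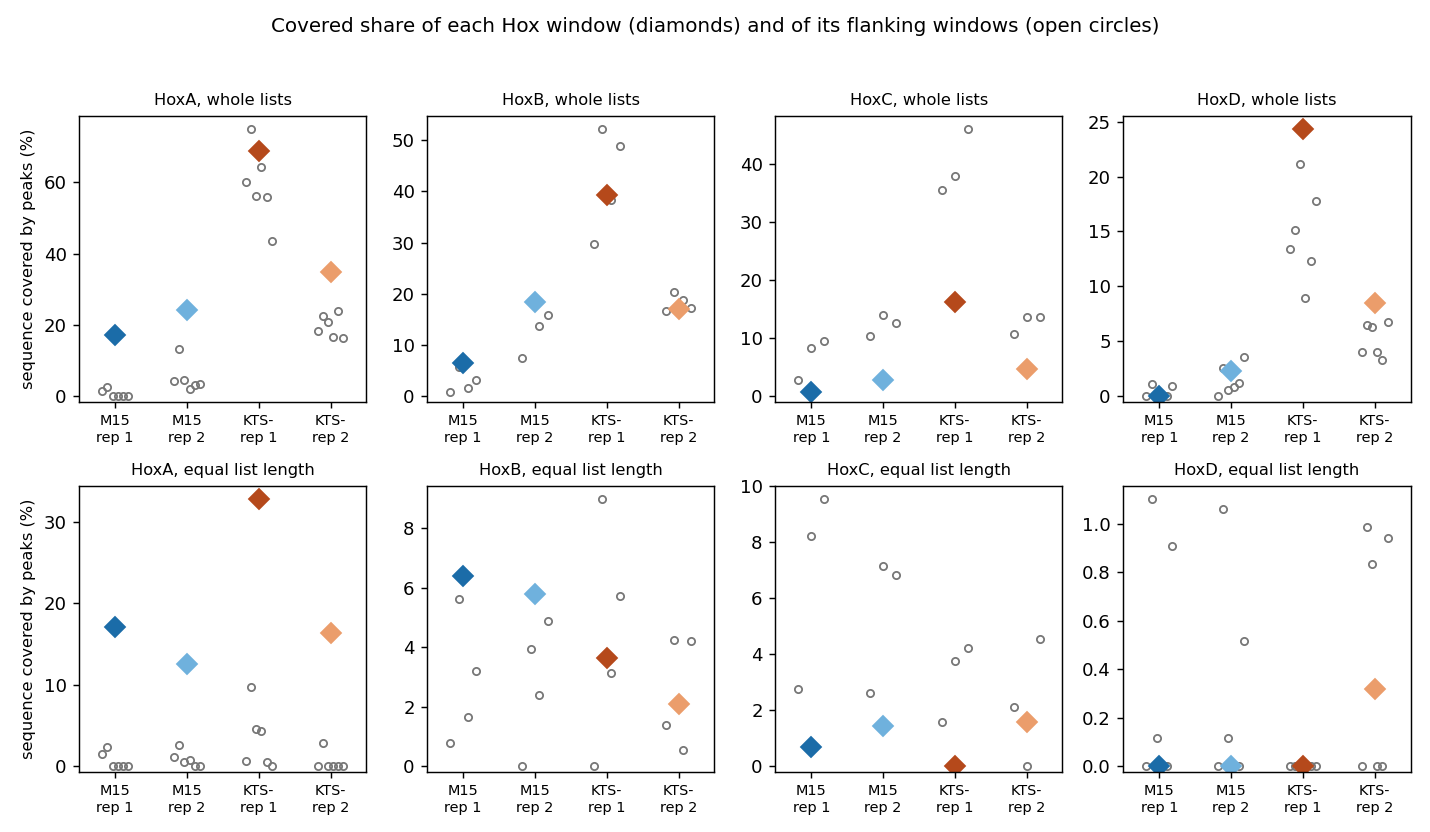
Percent of sequence covered by peaks in each Hox window (diamonds) and in each of its flanking windows of equal size (open circles), by library, for whole lists (top) and equal list length (bottom). HoxA lies above all its circles in every library at equal list length, and HoxC below all 3 of its circles in every library with whole lists.

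The HoxA peaks were packed toward Hoxa2. With the window cut into 3 equal segments, the Hoxa2 side was covered to 38.6%, 50.8%, 86.5% and 62.0% in M15 replicates 1 and 2 and KTS-minus replicates 1 and 2. The middle segment was covered to 12.6%, 16.1%, 68.9% and 30.6%, and the Hoxa13 side to 0%, 5.94%, 50.8% and 12.2%. The order was the same in all 4 libraries. Of the equal-length lists none kept a peak on the Hoxa13 side, where the Hoxa2 side was covered to 38.6%, 32.6%, 53.8% and 38.9%. M15 replicate 1 listed nothing over the last 75.1 kb of the window, and M15 replicate 2 left a gap of 43.2 kb from 52163643 to 52206849, followed by 3 peaks with max signals (highest coverage in the peak) of 9, 6 and 10, at percentiles 73.2, 25.6 and 80.8 of the list.

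The widest HoxA peaks lay on this side too. In M15 replicate 1 the widest ran over 9865 bp from 52107999 to 52117863 (max signal 67), and in M15 replicate 2 over 7937 bp from 52107591 to 52115527 (max signal 34). KTS-minus replicate 2 covered the same place with peaks of 5151 bp and 5852 bp, from 52107997 to 52113147 and from 52113229 to 52119080, with max signals of 59 and 48. KTS-minus replicate 1 listed 11756 bp from 52105870 to 52117625 and 10845 bp from 52117877 to 52128721, with max signals of 53 and 50. Its widest peak, of 18723 bp, lay farther on, from 52141681 to 52160403, with a max signal of 32. For comparison, the median width over all peaks was 1673, 1009, 1108 and 684 bp in these lists.

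Merging overlapping peaks of the 4 lists gave 39 regions in HoxA. A region counted as shared when each library concerned had a peak in it. 4 HoxA regions had a peak in both M15 libraries (10.3%, against 1.15% in its flanks and 1.25% of all 455287 regions of the genome), and all 4 of these also had a peak in both KTS-minus libraries (1.17% of the genome's regions were in all 4 lists). The first, of 22852 bp from 52105870 to 52128721, held 3, 6, 2 and 7 peaks of M15 replicates 1 and 2 and KTS-minus replicates 1 and 2. Its highest max signals were 116, 34, 53 and 59, at percentiles 97.7, 99.4, 99.9 and 99.5 of their lists. The next, from 52141546 to 52160498, reached 55, 17, 32 and 95, at percentiles 80.4, 95.6, 99.5 and 99.9. The region from 52130464 to 52137842 reached 24, 11, 22 and 33, and the smallest, from 52138410 to 52141495, 16, 10, 23 and 40. Long merged regions join several peaks, so the 4 regions hold all 8 peaks of M15 replicate 1.

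By base pairs, 14.5% of HoxA lay under peaks of both M15 replicates and 13.1% under peaks of all 4 libraries. In the flanks these shares were 0.508% and 0.443%. Of the sequence common to both M15 replicates, 90.6% in HoxA and 87.1% in its flanks was also under both KTS-minus replicates. The M15 sequence of HoxA was thus shared with KTS-minus to about the extent found next to the cluster. The sequence under both KTS-minus replicates was under at least 1 M15 peak to 67.5% in HoxA and to 12.1% in the flanks.

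**Figure D3:**
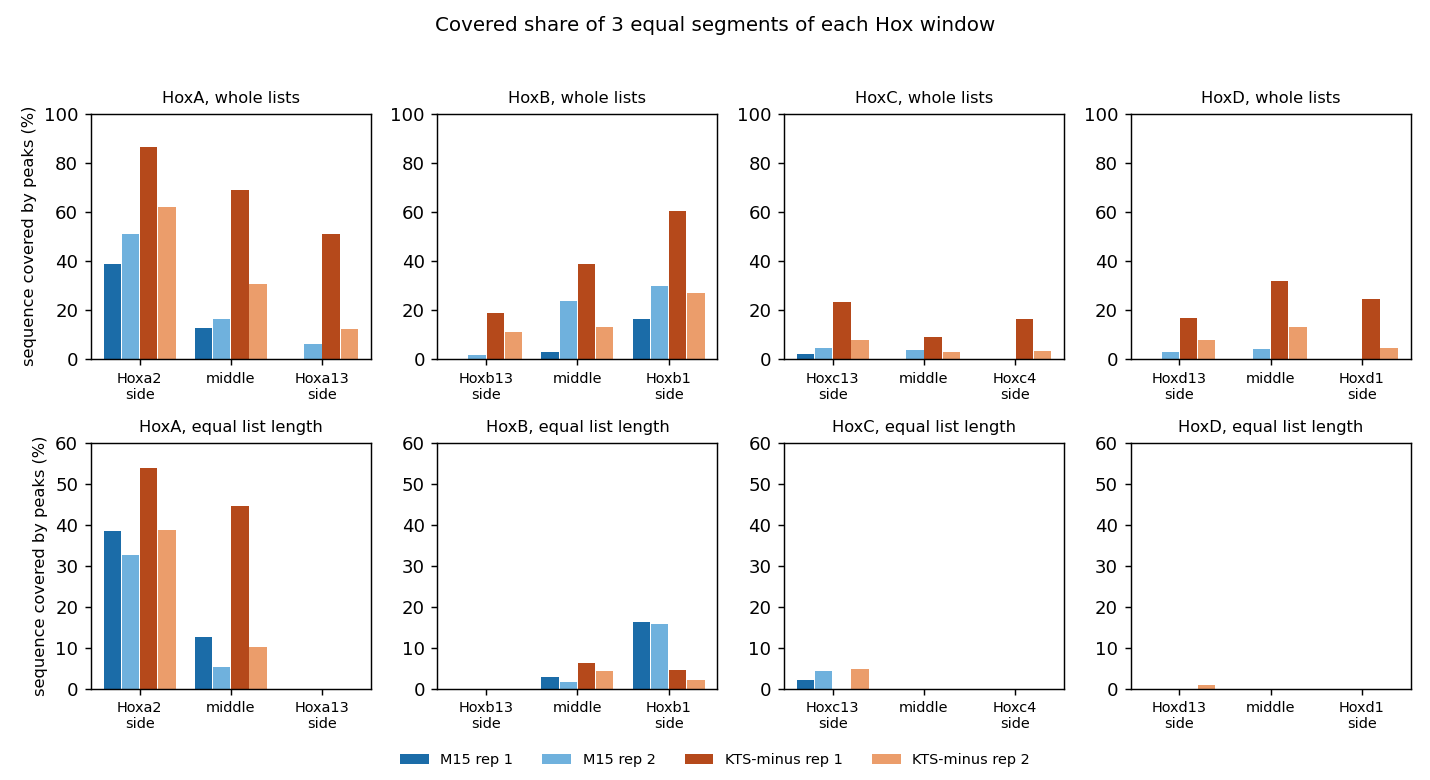
Percent of sequence covered by peaks in 3 equal segments of each Hox window, one bar per library, for whole lists (top) and equal list length (bottom). Bars fall from the Hoxa2 side to the Hoxa13 side in HoxA, and in whole lists they rise from the Hoxb13 side to the Hoxb1 side in HoxB.

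HoxB, from Hoxb13 to Hoxb1, was covered moderately. Its peaks covered 6.38% and 18.3% of the window in M15 replicates 1 and 2 and 39.2% and 16.9% in KTS-minus replicates 1 and 2. The flanks were covered to 2.81% ± 2.13, 13.9% ± 4.77, 42.3% ± 10.3 and 18.3% ± 1.71 (SD over 4 windows). The ratios were 2.27 and 1.32 in M15 and 0.927 in each KTS-minus library. At equal list length they were 2.27 and 2.07 in M15 and 0.812 in each KTS-minus library. In whole lists HoxB exceeded 4 of 4 flanking windows in M15 replicate 1, 3 in M15 replicate 2, 2 in KTS-minus replicate 1 and 1 in KTS-minus replicate 2. With equal lists it exceeded all 4 in both M15 libraries and 2 in each KTS-minus library. The direction in M15 depended on the flanks: against windows 1 to 1.5 Mb away the ratios were 0.731 and 0.837 (M15) and 0.868 and 0.841 (KTS-minus). In tiles of the HoxB size over the genome, 0.828%, 1.90%, 9.2% and 6.90% were covered at least as much as HoxB in M15 replicates 1 and 2 and KTS-minus replicates 1 and 2. On chromosome 11 itself the shares were larger, at 3.79%, 4.66%, 16.7% and 11.2% of 580 tiles in the same order.

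In HoxB, too, the side of the low-numbered genes was covered most. The Hoxb1 side was covered to 16.3%, 29.9%, 60.2% and 26.9% in M15 replicates 1 and 2 and KTS-minus replicates 1 and 2, the middle segment to 2.84%, 23.6%, 38.8% and 12.9%, and the Hoxb13 side to 0%, 1.49%, 18.6% and 11%. The order held in all 4 whole lists. In equal-length lists it held in both M15 libraries (16.3% and 15.7% on the Hoxb1 side, against 2.84% and 1.62% in the middle). It turned in KTS-minus, with 4.56% and 2.10% on the Hoxb1 side against 6.30% and 4.22% in the middle, where each value rests on 1 or 2 peaks.

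Both M15 libraries had a peak in 5 HoxB regions (7.69% of 65, against 4.80% in its flanks and 1.25% in the genome), and 4 of them had a peak in all 4 libraries. In the HoxB flanks 13 regions were in both M15 libraries, and all 13 were in all 4. The region from 96178720 to 96183192 had its highest max signals at 36 (M15 replicate 1), 19 (M15 replicate 2), 25 (KTS-minus replicate 1) and 40 (KTS-minus replicate 2), and it kept a peak in all 4 equal-length lists. The region from 96130395 to 96133042 reached 40 and 11 in M15 and 54 in KTS-minus replicate 2, and KTS-minus replicate 1 listed no peak there. It was the 1 region of the 4 clusters that both M15 libraries shared and a KTS-minus library lacked. The region from 96210960 to 96219573 reached 18, 13, 19 and 28. The others, from 96192598 to 96196065 and from 96198293 to 96207935, reached 15 and 12 in M15 alike, and 18 and 28 or 20 and 39 in KTS-minus. The widest HoxB peaks were 2729, 5070, 5898 and 3603 bp in M15 replicates 1 and 2 and KTS-minus replicates 1 and 2. Peaks of all 4 libraries coincided over 3.29% of HoxB and 1.85% of its flanks.

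HoxC, from Hoxc13 to Hoxc4, was covered less than its flanks in whole lists. It was covered to 0.677% and 2.71% in M15 replicates 1 and 2 and to 16.2% and 4.6% in KTS-minus replicates 1 and 2. The 3 flanking windows were covered to 6.84% ± 3.61, 12.3% ± 1.82, 39.8% ± 5.54 and 12.7% ± 1.68 (SD), and the cluster lay below all 3 in every library. The ratios were 0.0989, 0.221, 0.408 and 0.363. All 3 windows lie on the low side of the cluster, and windows 1 to 1.5 Mb away gave 2.16 in M15 replicate 2, 1.25 in KTS-minus replicate 1 and 0.682 in KTS-minus replicate 2. On chromosome 15 as a whole peaks covered 0.814%, 4.96%, 31.6% and 13.4%. Tiles of the HoxC size were covered at least as much as HoxC in 25.3% and 54.0% of 689 tiles of that chromosome in M15, and in 92.6% and 96.8% in KTS-minus.

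One HoxC region had a peak in all 4 libraries (3.85% of 26, against 9.92% in its flanks and 1.17% in the genome). M15 replicate 1 listed no other peak in the window. The peak ran from 102750678 to 102751692 in M15 replicate 1 (max signal 63) and from 102751029 to 102753206 in M15 replicate 2 (29). It ran from 102749532 to 102752022 in KTS-minus replicate 1 (20) and from 102750916 to 102753278 in KTS-minus replicate 2 (69). These values stood at percentiles 86.1, 99.0, 91.8 and 99.7 of their lists. In KTS-minus replicate 1, where HoxC held 20 peaks, 2 others also reached 20. The middles of the stretches of highest signal lay within 13 bp of each other in all 4 libraries, next to position 102751321. The site is 11 kb inside the Hoxc13 side of the window. The other HoxC peaks of M15 replicate 2 numbered 2, each with a max signal of 6. In KTS-minus 2 further regions had a peak in both libraries, from 102754981 to 102757167 (max signals 11 and 15) and from 102839541 to 102841242 (20 and 20). With the site above, such regions made up 11.5% of the HoxC regions, against 25.6% in its flanks and 18.3% in the genome. The widest HoxC peaks were 1015, 2178, 2805 and 2363 bp in M15 replicates 1 and 2 and KTS-minus replicates 1 and 2. From 102771953 to 102796620 no library listed a peak.

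HoxD, from Hoxd13 to Hoxd1, held 0 peaks in M15 replicate 1 and 3 in M15 replicate 2. Those 3 had max signals of 7, 8 and 8, at percentiles of 45.2 and 61.6, and covered 2.29% of the window. KTS-minus replicates 1 and 2 listed 25 and 15 peaks over 24.3% and 8.47%. The flanks were covered to 0.355% ± 0.511, 1.45% ± 1.32, 14.8% ± 4.29 and 5.14% ± 1.52 (SD over 6 windows) in M15 replicates 1 and 2 and KTS-minus replicates 1 and 2. In both KTS-minus libraries HoxD lay above all 6 flanking windows, by a ratio of 1.65 in each. In M15 replicate 2 the ratio was 1.58, and the cluster lay above 4 of 6 windows. M15 replicate 1 was at 0, as were 82.4% of tiles of the HoxD size over the genome. The lists differ in length, and the difference between the lines at HoxD was not tested. At equal list length HoxD kept 1 peak in KTS-minus replicate 2 and none in the other 3 libraries. The ratio was then 0.694 in KTS-minus replicate 2, with 3 of 6 flanking windows above the cluster. In KTS-minus replicate 1 cluster and flanks were both at 0, so the excess of the whole lists was not seen there.

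KTS-minus peaks of HoxD were spread over the whole window. The Hoxd13 side was covered to 16.6% and 7.83% in KTS-minus replicates 1 and 2, the middle to 31.9% and 12.9% and the Hoxd1 side to 24.6% and 4.65%. Both KTS-minus libraries had a peak in 6 HoxD regions (17.1% of its 35 regions, against 18.3% of all regions of the genome), and in 5 of them M15 had none (14.3%, against 13.5%). These shares are close to the background. The widest of the 6, from 74540140 to 74544536, reached 21 in KTS-minus replicate 1 and 24 in replicate 2 by max signal, at percentiles 93.7 and 66.2. The regions from 74546225 to 74547184 and from 74532864 to 74534021 reached 13 and 29 (percentiles 52.2 and 83.5) and 14 and 20 (61.5 and 45.9). The widest HoxD peaks were 1271 bp in M15 replicate 2 and 4397 and 2044 bp in KTS-minus replicates 1 and 2. The strongest HoxD peak, from 74499084 to 74499499 with a max signal of 42, was only 416 bp wide and was listed in KTS-minus replicate 2 alone.

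**Figure D4:**
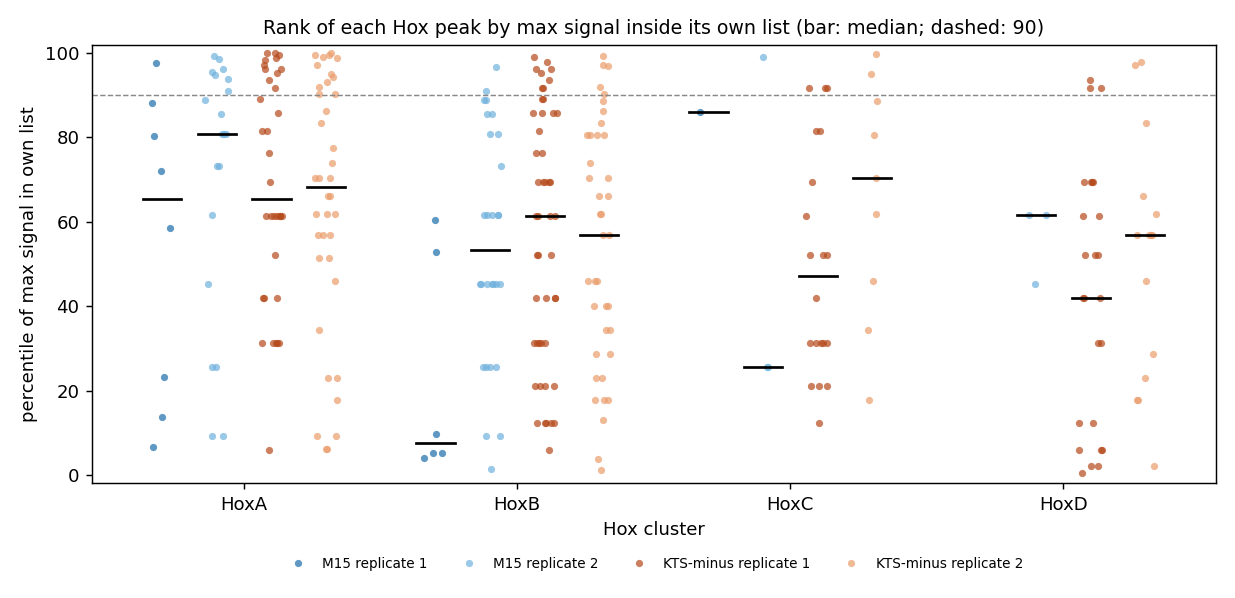
Percentile of the max signal of each Hox peak among all peaks of its own list (y axis), by cluster and library, with the median as a bar and the 90th percentile as a dashed line. HoxA peaks reach the top in all 4 libraries, while 4 of the 6 HoxB peaks of M15 replicate 1 lie under the 10th percentile.

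Hox peaks were ranked by max signal inside their own list, and the peaks above the 90th percentile were counted in each. In M15 replicate 1 this was 1 of 15 Hox peaks (6.67%, exact 95% interval 0.169 to 31.9), against 10.1% of its whole list. In M15 replicate 2 it was 10 of 54 (18.5%, 9.25 to 31.4), against 9.88%. In KTS-minus it was 25 of 127 (19.7%, 13.2 to 27.7) against 9.36% in replicate 1 and 21 of 101 (20.8%, 13.4 to 30.0) against 10.6% in replicate 2. In the flanks the shares were 19.4% of 31 peaks and 15.9% of 182 in M15 replicates 1 and 2, and 14.8% of 664 and 12.9% of 488 in KTS-minus replicates 1 and 2. In M15 replicate 1 the flanks thus had the larger share. In M15 replicate 2 and KTS-minus replicate 1 the flank share lay inside the interval of the Hox peaks. In KTS-minus replicate 2 it lay just below the interval (12.9% against 13.4 to 30.0). The intervals cover counting error only and take peaks as independent, which neighbours are not. HoxA supplied 1, 7, 11 and 12 of these peaks, HoxB 0, 2, 8 and 5, HoxC 0, 1, 3 and 2, and HoxD 0, 0, 3 and 2. Within HoxA 35% of the peaks in M15 replicate 2, 32.4% in KTS-minus replicate 1 and 31.6% in KTS-minus replicate 2 were above the 90th percentile, against 12.8%, 21.1% and 7.65% of the peaks in its flanks. For M15 replicate 1 it was 1 of 8 HoxA peaks (12.5%, 0.316 to 52.7), near the 10.1% of its list, and 0 of 3 flanking peaks.

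The short M15 replicate 1 list gave a different order in HoxB. There 4 of 6 peaks had max signals of only 14 to 18, at percentiles 4.11 to 9.83, and the median percentile was 7.53, against 85 for the peaks in the flanks. In M15 replicate 2 the HoxB median was 53.4, against 45.2 in the flanks. The HoxA median was 65.4 and 80.8 in M15 replicates 1 and 2, against 69.0 (3 flanking peaks) and 45.2. In KTS-minus it was 65.5 and 68.3, against 69.5 and 40.2. The HoxA flanks of KTS-minus replicate 1 thus ranked no lower than HoxA itself by this measure.

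Over the 4 clusters, 10 of 165 merged regions (6.06%) had a peak in both M15 libraries, against 1.25% of the genome's regions and 3.74% of those in the flanks. Of the 10, 9 had a peak in all 4 libraries, 1 in 3 libraries and 0 in the M15 libraries alone (0.0154% of the genome's regions were of that last kind). All 30 flanking regions shared by both M15 libraries were in all 4 libraries. Regions in both KTS-minus libraries numbered 38 (23.0%, against 18.3% in the genome and 30.7% in the flanks), and 21 of these had no M15 peak (12.7%, against 13.5% in the genome). HoxA held 4, HoxB 4 and HoxC 1 of the 9 regions found in all libraries. None lay on the Hoxa13 side of HoxA or the Hoxb13 side of HoxB, but the HoxC one lay on the Hoxc13 side. Of the 21 KTS-minus regions without an M15 peak, HoxA and HoxB held 7 each, HoxC 2 and HoxD 5. They made up 17.9% of the HoxA and 10.8% of the HoxB regions, against 31.9% and 19.9% in their flanks. Of these, 4 lay on the Hoxa13 side and 4 on the Hoxb13 side. Shares by side were not computed, so these counts show no excess there.

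The place of the highest signal was also compared between libraries. For each of the 15 Hox peaks of M15 replicate 1, the distance was measured from the middle of its stretch of highest signal to the nearest middle of such a stretch in each other list. Stretches can be long, so 2 that overlap can have middles far apart. The distance was 100 bp or less for 6 of 15 in M15 replicate 2 (40.0%, against 67.7% in the flanks and 54.1% of all 6440 peaks of the M15 replicate 1 list). It was so for 3 in KTS-minus replicate 1 (20.0%, against 25.8% and 29.8%) and for 7 in KTS-minus replicate 2 (46.7%, against 61.3% and 45.3%). For 2 of 15 it was so in all 3 other lists (13.3%, against 6.45% and 13.2%). The median distance to M15 replicate 2 was 199 bp for the Hox peaks and 46 bp for those in the flanks. The lists compared also differ in their number of peaks.

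By this measure the 2 were the HoxC site and the strongest HoxA peak of M15 replicate 1. At the HoxA peak, the middle of the stretch from 52122713 to 52122715, where the max signal was 116, was 56, 15 and 5 bp from the nearest middle in M15 replicate 2, KTS-minus replicate 1 and KTS-minus replicate 2. At another HoxA peak the stretch from 52154498 to 52154510 lay inside the longer stretch of M15 replicate 2 from 52154472 to 52155092, and the KTS-minus middles were 78 and 29 bp away. At the wide HoxA peak from 52107999 to 52117863 the middles of the M15 replicates were 14 bp apart. There the KTS-minus replicate 2 stretch, from 52109465 to 52109935, contained that of M15 replicate 1, and the nearest KTS-minus replicate 1 middle was 1161 bp away. In HoxB, the stretch of M15 replicate 1 from 96132473 to 96132490 had its middle 4 bp from that of KTS-minus replicate 2 and lay inside the M15 replicate 2 stretch from 96131411 to 96132747. The nearest KTS-minus replicate 1 middle was 4317 bp away. The stretch from 96180726 to 96180730 had its middle 6 bp from that of M15 replicate 2.

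Taking the clusters as 1 set hid these differences. All 4 windows together were covered to 6.08% and 12.6% in M15 replicates 1 and 2 and to 37.2% and 16.3% in KTS-minus replicates 1 and 2. The flanks together were covered to 2.15% and 7.75% in M15 and to 39.4% and 14.3% in KTS-minus. The ratio was 2.2 ± 0.85 in M15 and 1.04 ± 0.135 in KTS-minus (SD, n = 2 each). At equal list length it was 2.69 ± 0.190 and 3.32 ± 0.289 (SD, n = 2 each). The order of the lines thus turned when the lists were made equally long, and the pooled ratio gives no direction between them.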

How the data were processed

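Peak lists of 4 WT1 CUT&RUN libraries were used, 2 from M15 and 2 from KTS-minus. Per the submitters' processing notes the authors used SEACR 1.3, Bowtie2 2.2.6 and bedtools 2.23.0, besides SAMtools 1.3, Picard 2.5.0 and FastQC 0.11.8, with build mm9. Not given in the sources used here: the order of these steps, the control and threshold of peak calling, any scaling and any use of the yeast spike-in. The deposited signal columns hold, per peak, the total and the highest coverage in whole numbers. They are the authors' values and served only to rank or filter peaks within a list. Read depth is unknown.

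Coordinates are counted from 1. Covered share is the percent of a window under peaks, regions are peaks merged at 1 bp or more of overlap, and percentiles use mean ranks for ties. Named regions are, per cluster, the 3 regions with the best mean percentile among those in both M15 libraries, filled from those in both KTS-minus libraries, and the widest peak per library. Other regions and peaks named, the comparison of points of highest signal and the tiles were chosen after their values were seen. The members and lists were chosen with earlier results of these data known. Hox cofactor genes were not placed, since no mm9 annotation was used. Intervals are exact Clopper-Pearson at 95%. Coverage and merging were tested on simulated peaks. Computation used Python 3.11.15, numpy 2.4.6, pandas 2.3.3, scipy 1.17.1 and matplotlib 3.10.9.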

Additional observations from a re-analysis of the deposited data

Results flagged for a closer look

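HoxB drew attention because its mean ratio of covered share to flanks lay above 1 in M15 and below 1 in KTS-minus. The difference was not tested. Among the whole lists, only in M15 replicate 1 did HoxB lie more than 1 SD from its flanks (6.38% against 2.81% ± 2.13, SD over 4 windows). M15 replicate 2 stood at 18.3% against 13.9% ± 4.77. KTS-minus replicates 1 and 2 stood at 39.2% against 42.3% ± 10.3 and 16.9% against 18.3% ± 1.71. In whole lists the mean ratio was 1.79 in M15, where both libraries were above 1, and 0.927 in KTS-minus, where both were below 1. At equal list length the means were 2.17 and 0.812. M15 replicate 2 then also lay more than 1 SD above its flanks (5.78% against 2.79% ± 2.13). Both KTS-minus libraries stayed within 1 SD. HoxB then held 6 and 4 peaks in M15 replicates 1 and 2 and 2 in each KTS-minus library. Against flanks 1 to 1.5 Mb away both lines were below 1. With windows widened by 20 kb the HoxB mean was 5.16 in M15 and 1.01 in KTS-minus, and with stretches of highest signal 18.4 and 0.800, where the M15 libraries stood at 36.0 and 0.812.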

How the results depend on the processing

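The values rest on 2 libraries a line, whose lists differ in length, and the read depth behind them is unknown. No paired analysis was possible because no result comes from a test. The pooled covered share over flanks in M15 (2.2) was 9.10 with peaks reduced to their stretches of highest signal and 4.81 against the median of the flanks, and 1.63 to 2.83 with 1 replicate left out. In KTS-minus (1.04) it was 1.20 with flanks farther out, 3.32 at equal list length, 0.807 with stretches of highest signal, 0.981 against the median of the flanks, and 0.945 to 1.14 with 1 replicate left out. Regions in both M15 libraries (10) numbered 6 among the 50% of peaks with the most total signal and 5 with stretches of highest signal. They ranged from 10 to 38 with 1 replicate left out, 38 being the count of M15 replicate 2 alone. Regions in all 4 libraries (9) numbered 5 among the 50% of peaks with the most total signal, 3 at equal list length, 1 with stretches of highest signal and 4 at 50% reciprocal overlap, and ranged from 9 to 17 with 1 library left out. The share above the 90th percentile in KTS-minus (20.2%) was 19.3% with windows widened by 20 kb, 21.6% among the 50% of peaks with the most total signal, 22.1% when ranked by total signal, and 19.7% to 20.8% with 1 replicate left out. Among single clusters, the ratio crossed 1 for HoxB in M15 with flanks farther out (0.784) and in KTS-minus with windows widened (1.01), for HoxA in KTS-minus with stretches of highest signal (0.839), and for HoxD in M15 against the median of the flanks (1.12) and without M15 replicate 1 (1.58; 0 without replicate 2). The cause was not tested.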
